A study of Mus musculus with 4 samples.

Results

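Goblet cells of the mouse colon were picked from droplet single-cell RNA sequencing of colon tissue, and cells of mice given carbon tetrachloride (CCl4) were set against cells of control mice. CCl4 is a liver toxin used in rodents to bring on liver fibrosis and cirrhosis. Per the series' design text, the mice were specific-pathogen-free and 6 weeks old when treatment began, and treatment lasted 6 weeks. There were 2 CCl4 libraries and 2 control libraries. The labels give no strain, sex, age or duration for the control libraries, nor the number of animals in a library, so a p-value here covers no more than the variation from library to library, part of which may be technical. No measure of the liver was used here.

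A barcode (the tag of a droplet, taken as a cell) was kept where it held 200 genes or more and no more than 25% mitochondrial counts. It was called goblet where Muc2, Agr2, Spink4 and Fcgbp together made up at least 0.3% of its counts, Epcam, Krt8, Krt18, Krt19, Cldn7 and Lgals4 at least 0.1%, and Ptprc, Col1a1 and Pecam1 were all at 0. The rule found 2315 goblet barcodes among 38852 kept and 46509 deposited ones, with 948 and 807 in the CCl4 libraries and 276 and 284 in the control libraries. A further 10352 barcodes met the epithelial part of the rule with the 4 goblet genes under 0.3%, and are called other epithelial here. The libraries held 92383719 and 74643979 counts (CCl4) and 55834301 and 58667918 counts (control), of which goblet barcodes held 12276903 and 9000289, and 3405319 and 3598671. The median goblet barcode held 10799.5 and 9436 counts in the CCl4 libraries and 9705.5 and 10753 in the control libraries. Its mitochondrial share was 8.49% and 7.86% in CCl4, against 6.13% and 6.16% in control. Of goblet barcodes, 4.32% and 3.72% (CCl4) and 6.16% and 6.69% (control) were among the 6% of each library with the highest doublet scores. They were kept. No goblet profile occurred in more than 1 library, although between 8191 and 10738 cell names, which are running numbers of each file, were shared by pairs of libraries.

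Goblet cells are secretory cells of the intestinal epithelium. They fold, glycosylate and store the gel-forming mucin Muc2 in granules and release it with lectins, trefoil peptides and antibacterial proteins, which together build the mucus layer that keeps bacteria off the colon surface. Cells are committed to the secretory lineage by the transcription factor Atoh1, and Spdef drives goblet maturation in the mouse. New goblet cells form low in the crypt, gain mucin as they move up, and are shed at the surface.

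The rule genes chose the cells, so their levels are a description without a test. Levels are CPM (counts scaled with edgeR to a common library size), computed from the summed counts of a cell set in a library. Muc2 was at 5588 and 5208 CPM in CCl4 goblet cells, against 6891 and 8350 CPM in control goblet cells. Agr2, a disulfide isomerase needed to make Muc2, was at 7510 and 8186 CPM in CCl4 and 8766 and 8865 CPM in control. Spink4, a secreted protein of goblet cells, was at 6594 and 6240 CPM in CCl4 and 7251 and 7376 CPM in control. These 3 genes had lower values in both CCl4 libraries than in both control libraries. Fcgbp, a mucus protein that binds Muc2, was at 334 and 522 CPM in CCl4 and 285 and 642 CPM in control, where the groups overlapped. Fcgbp had no count in 61.5% and 57.7% of CCl4 and 56.5% and 57.7% of control goblet barcodes, so the selection rested mainly on the other 3 genes. Krt8, Krt18, Krt19, Epcam, Cldn7 and Lgals4 each lay between 1047 and 3188 CPM in goblet cells.

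The summed level of goblet markers outside the rule was far above that in other epithelial cells. The 12 listed goblet markers that the rule did not use, among them Spdef, Atoh1, Klk1 and Ern2, summed to 6655 and 6947 CPM in CCl4 goblet cells and 5785 and 6464 CPM in control goblet cells. Over other epithelial cells they summed to 507 and 502 CPM (CCl4) and 429 and 391 CPM (control). Klk1 made up most of the goblet sum in each library, at levels given below. T cell markers summed to between 1.38 and 3.43 CPM in goblet cells, and glial and endothelial markers to between 6.77 and 12.4 CPM. Other lists were higher. B and plasma cell markers summed to 763 and 1261 CPM in CCl4 and 886 and 1196 CPM in control goblet cells, fibroblast markers to 88.6 and 86.5 against 48.6 and 62.0 CPM, and smooth muscle markers to 45.2 and 15.6 against 103.9 and 50.7 CPM. Their part in the results was not tested. Genes with at least 50 CPM in goblet cells were ranked by their lowest ratio to other epithelial cells over the 4 libraries, as a description. Mptx1, a mucosal pentraxin, led with a mean of 5452 CPM in goblet cells and 27.4 CPM in other epithelial cells. The antibacterial protein Retnlb had 1870 and 13.0 CPM, the membrane protease Tpsg1 166 and 0.9503 CPM, the chemokine Ccl6 813 and 12.2 CPM, the metallothionein Mt3 194 and 1.80 CPM, the matricellular protein Nov 456 and 5.85 CPM, and Spdef 245 and 2.77 CPM in the same order of cells. Mptx1 itself was at 5236 and 6936 CPM in CCl4 goblet cells, against 2956 and 6680 CPM in control goblet cells, and its change was within the spread (log2 0.34, SE 0.27, edgeR adjusted p = 0.6819).

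Goblet cells took a larger share of barcodes in the CCl4 libraries. They made up 8.58% (95% exact binomial interval 8.07 to 9.12) and 7.75% (7.24 to 8.28) of kept barcodes in CCl4, against 3.20% (2.84 to 3.60) and 3.24% (2.88 to 3.63) in control. As a share of epithelial barcodes they were 21.0% and 19.2% in CCl4 and 13.8% and 14.5% in control. The mean difference was 4.95 percentage points (2.54-fold) of kept barcodes and 5.93 points (1.42-fold) of epithelial barcodes. The epithelial means were 20.1% ± 1.29 in CCl4 and 14.2% ± 0.489 in control (SD, n = 2 libraries each). The intervals cover counting error only. The libraries did not overlap in either share, and the exact two-sided permutation p was 0.3333 for both, the smallest that 2 against 2 libraries can give. Other epithelial barcodes took a larger share of kept barcodes in CCl4 as well. They numbered 3563 of 11045 and 3397 of 10416 in CCl4, against 1720 of 8620 and 1672 of 8771 in control. The larger share of kept barcodes was thus not particular to goblet cells. A share of barcodes also depends on how well each cell type survives dissociation, which was not tested.

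Within goblet cells, fewer barcodes were rich in Muc2 in the CCl4 libraries. The split was made on the Muc2 share of counts, with Muc2-high at 0.5% or more, Muc2-low under 0.1% and Muc2-middle between. Since Muc2 chose the cells and drew the split, these shares are given without a test. Muc2-high barcodes were 44.6% and 43.6% of goblet cells in CCl4 and 57.6% and 61.6% in control. Muc2-middle barcodes were 43.8% and 41.4% in CCl4 and 34.8% and 33.5% in control. Muc2-low barcodes were 11.6% and 14.99% in CCl4 and 7.61% and 4.93% in control, where they numbered only 21 and 14. The median Muc2 share was 0.441% and 0.403% in CCl4 and 0.582% and 0.700% in control. The ranges are cuts on a continuum: 161 and 112 CCl4 and 40 and 37 control barcodes lay within 20% of the upper cut. At the entry threshold, 56 and 55 CCl4 and 7 and 5 control barcodes lay just inside, with the 4 goblet genes between 0.3% and 0.4% of counts. Just outside, between 0.2% and 0.3%, lay 111 and 94 CCl4 and 17 and 16 control barcodes. These are 3.12% and 2.77% of other epithelial barcodes in CCl4, against 0.988% and 0.957% in control.

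**Figure D1:**
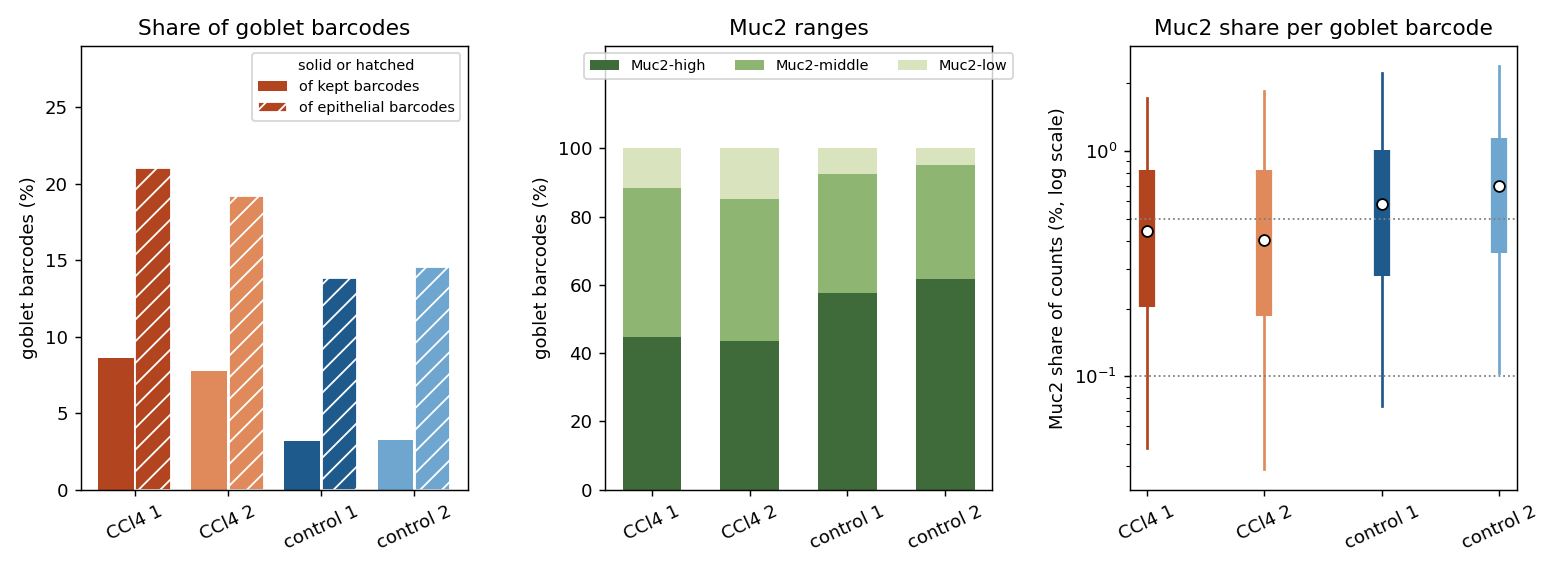
Goblet barcodes by library, with CCl4 libraries left of control libraries. Left, bars give goblet barcodes as a percentage of kept (solid) and of epithelial barcodes (hatched). Middle, stacked bars give the percentage of goblet barcodes in each Muc2 range. Right, the Muc2 share of counts per goblet barcode on a log axis, with the median (circle), the middle 50% (thick line), the 5th to 95th percentile (thin line) and the cuts at 0.1% and 0.5% (dotted). The medians were 0.441% and 0.403% in CCl4 and 0.582% and 0.700% in control.

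The gene-wise comparison used the summed counts of goblet barcodes in each library. edgeR called 48 of 12665 tested genes at an adjusted p under 0.05, which is 0.379% of them, with 36 (0.284%) higher and 12 (0.0947%) lower in CCl4. At an unadjusted p under 0.05 there were 766 higher and 739 lower. The median log2 change over all tested genes was 0.0039. The number of calls depended on the control libraries: leaving out the first gave 697 and leaving out the second 579, where the lone control library is assumed to vary like the CCl4 ones. Leaving out CCl4 library 1 or 2 gave 58 or 74. The called genes covered secreted products, a mucin-modifying enzyme, a lineage factor, metabolic enzymes, and haemoglobin transcripts.

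The secreted products changed in both directions. Of 21 tested members of the list of mucus and other secreted products, 4 rose (Sval1, Zg16, Reg4 and Ccl6) and 1 fell (Retnlb), with a median log2 change of 0.09. In CCl4 goblet cells Sval1, related to seminal vesicle antigen, was at 451 and 567 CPM, against 70.6 and 136 CPM in control goblet cells. Both CCl4 libraries lay above both control libraries, and the log2 change was 2.30 (SE 0.22, edgeR adjusted p = 0.001376). The rise went with more barcodes that carried it: 14.5% and 13.8% of CCl4 goblet barcodes held at least 10 Sval1 counts, against 2.17% and 3.52% of control ones. After each barcode was thinned to 1000 counts, 17.5% and 20.2% of CCl4 and 5.43% and 5.63% of control goblet barcodes held a Sval1 count. In barcodes that were not epithelial, with a median of 4124.5 to 5011.5 counts, the thinned share was 0.597% and 0.334% in CCl4 and 0.05% and 0.0468% in control, which was taken as the level of free RNA.

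Reg4, a secreted lectin of the regenerating protein family, was at 98.9 and 98.4 CPM in CCl4 and 27.2 and 44.3 CPM in control goblet cells (log2 1.46, SE 0.17, edgeR adjusted p = 0.004732). The Reg4 call was lost with barcodes thinned to 1000 counts (log2 1.35, edgeR adjusted p = 0.1265), and DESeq2 gave it no adjusted p. A Reg4 count was present in 21.7% and 19.8% of CCl4 and 10.9% and 11.3% of control goblet barcodes. After thinning the shares were 4.11% and 6.196% against 2.54% and 2.11%, with 0.0749% to 0.182% in barcodes that were not epithelial. Ccl6, a chemokine, was at 946 and 926 CPM in CCl4 and 695 and 687 CPM in control (log2 0.44, SE 0.072, edgeR adjusted p = 0.03478). The Ccl6 call was lost without CCl4 library 1 (log2 0.43, edgeR adjusted p = 0.09557) and with thinned barcodes.

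Retnlb, which encodes an antibacterial resistin-like protein, moved the other way. It was at 1149 and 1266 CPM in CCl4 goblet cells, against 2176 and 2890 CPM in control goblet cells. The log2 change was -1.07 (SE 0.12, edgeR adjusted p = 0.003052), and the groups did not overlap. At least 10 Retnlb counts were found in 21.0% and 19.95% of CCl4 goblet barcodes and in 40.9% and 38.7% of control ones. After thinning to 1000 counts, 26.3% and 25.4% of CCl4 and 44.6% and 43.0% of control goblet barcodes held a count, with 0.974% to 1.41% in barcodes that were not epithelial. So fewer barcodes carried Retnlb, whereas more carried Sval1. The ribonuclease Ang4 was at 70.4 and 100.7 CPM in CCl4 and 142 and 508 CPM in control, and missed the threshold (log2 -1.94, edgeR adjusted p = 0.1075) with control library 2 far above control library 1. With control library 2 left out its log2 change was -0.75, with control library 1 left out -2.58, and with CCl4 library 2 left out -2.20. Each of these fits left 1 library in a group. Without the barcodes richest in Zg16 and Clca1 the Ang4 log2 change was -0.0095 (edgeR adjusted p = 0.9953).

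Zg16, a lectin that binds bacterial cell walls in mucus, was called higher, but its counts sat in a handful of barcodes. It was at 619 and 721 CPM in CCl4 goblet cells and 196 and 281 CPM in control goblet cells (log2 1.49, SE 0.14, edgeR adjusted p = 0.001376). In the control libraries 1 barcode each held 88.1% and 98.0% of all Zg16 counts, and without it the level was 23.4 and 5.51 CPM. In the CCl4 libraries the top barcode held 40.1% and 24.8%, and without it the level was 371 and 542 CPM. Barcodes with at least 10 Zg16 counts numbered 21 and 26 in CCl4 (2.22% and 3.22%) and 3 and 1 in control (1.09% and 0.352%). After thinning, 5.17% and 4.83% of CCl4 goblet barcodes held a count, above the 1.95% and 2.10% of CCl4 barcodes that were not epithelial. In control the shares were 1.09% and 0.704% of goblet barcodes against 0.824% and 0.726%, so they lay near those of barcodes that were not epithelial. The part of free RNA in the control Zg16 level was not tested. The call was lost with stricter cells, with doublets removed, with the 1% goblet threshold, with thinned barcodes and without the barcodes richest in Zg16 and Clca1. Clca1, a mucus protease, had at least 10 counts in 4.01% and 4.58% of CCl4 and 3.99% and 5.28% of control goblet barcodes. Its level was 190 and 475 CPM in CCl4 and 105 and 517 CPM in control, with no difference beyond the spread (log2 0.09, SE 0.55, edgeR adjusted p = 0.9754).

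**Figure D2:**
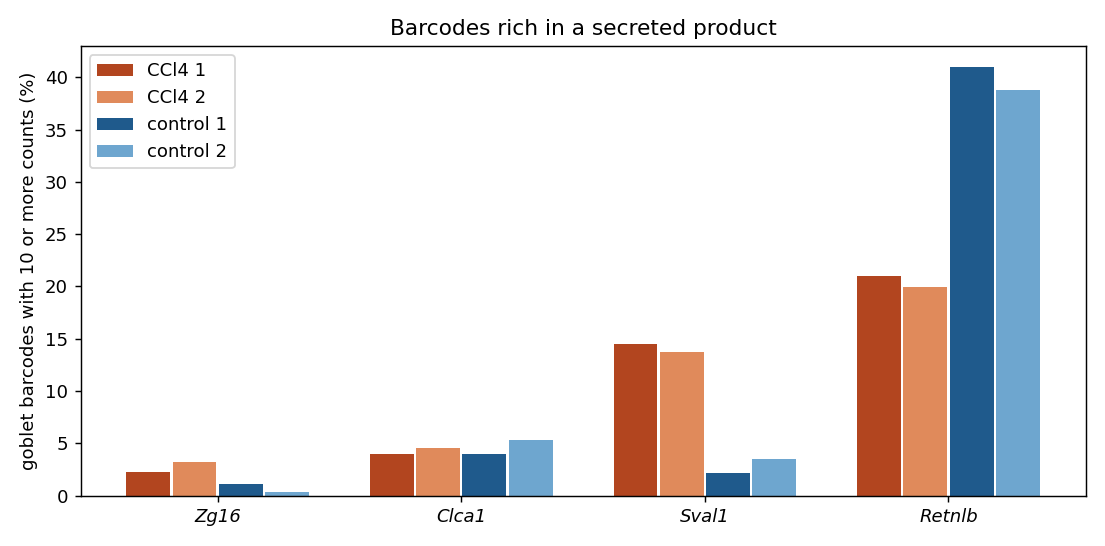
Percentage of goblet barcodes with 10 or more counts of Zg16, Clca1, Sval1 and Retnlb in each library, with CCl4 bars left of control bars. Sval1 stood at 14.5% and 13.8% in CCl4 and 2.17% and 3.52% in control, Retnlb at 21.0% and 19.95% in CCl4 and 40.9% and 38.7% in control.

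Several abundant secreted products outside the rule were not called. Klk1, a tissue kallikrein protease, was at 4096 and 3838 CPM in CCl4 and 3893 and 3940 CPM in control (log2 0.02, SE 0.066, edgeR adjusted p = 0.9503), and the groups overlapped. Guca2a, the precursor of guanylin, was at 1219 and 1318 CPM in CCl4 and 1522 and 959 CPM in control (log2 0.03, edgeR adjusted p = 0.966), with a log2 change of 0.40 without control library 1 and -0.27 without control library 2, both past the threshold. The trefoil peptide Tff3 was at 684 and 778 CPM in CCl4 and 551 and 634 CPM in control, above both control libraries but not past the threshold (log2 0.30, edgeR adjusted p = 0.2534).

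Among enzymes that build and sulfate the sugar chains of mucin, 1 of 42 tested members rose, none fell and the median log2 change was -0.07. The member that rose was B3gnt7, an N-acetylglucosaminyltransferase that extends sugar chains. It was at 218 and 203 CPM in CCl4 goblet cells, against 96.0 and 123 CPM in control goblet cells (log2 0.94, SE 0.12, edgeR adjusted p = 0.006725). A count was found in 52.3% and 49.4% of CCl4 and 34.8% and 39.8% of control goblet barcodes, and after thinning in 16.0% and 14.1% against 8.33% and 10.6%. The summed level of the 47 listed genes was 8507 and 8453 CPM in CCl4 and 8682 and 9142 CPM in control. The most abundant members did not pass the test: Gfpt1, which opens the hexosamine pathway, was at 1368 and 1393 CPM in CCl4 and 1479 and 1619 CPM in control.

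Of 25 tested transcription factors and Notch genes of the secretory lineage, 1 rose and none fell, with a median log2 change of 0.13. That gene was Atoh1, at 67.2 and 78.2 CPM in CCl4 goblet cells and 35.7 and 27.8 CPM in control goblet cells (log2 1.19, SE 0.15, edgeR adjusted p = 0.006725). The Atoh1 call was lost with barcodes thinned to 1000 counts (log2 1.29, edgeR adjusted p = 0.2068), and DESeq2 gave it no adjusted p. An Atoh1 count was present in 29.96% and 30.6% of CCl4 and 18.1% and 16.5% of control goblet barcodes, and in 0.0749% to 0.304% of barcodes that were not epithelial. After thinning the goblet shares were 6.65% and 5.45% against 1.81% and 2.82%. Spdef, which acts after Atoh1, was at 245 and 250 CPM in CCl4 and 248 and 237 CPM in control (log2 0.03, SE 0.084, edgeR adjusted p = 0.9369). Klf4, a factor of goblet differentiation, was at 649 and 648 CPM in CCl4 and 738 and 621 CPM in control. Rep15, which encodes an effector of the small GTPase Rab15 and was on none of the lists, rose with a small spread. It was at 166 and 198 CPM in CCl4 and 72.3 and 78.5 CPM in control (log2 1.27, SE 0.11, edgeR adjusted p = 0.0009889).

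**Figure D3:**
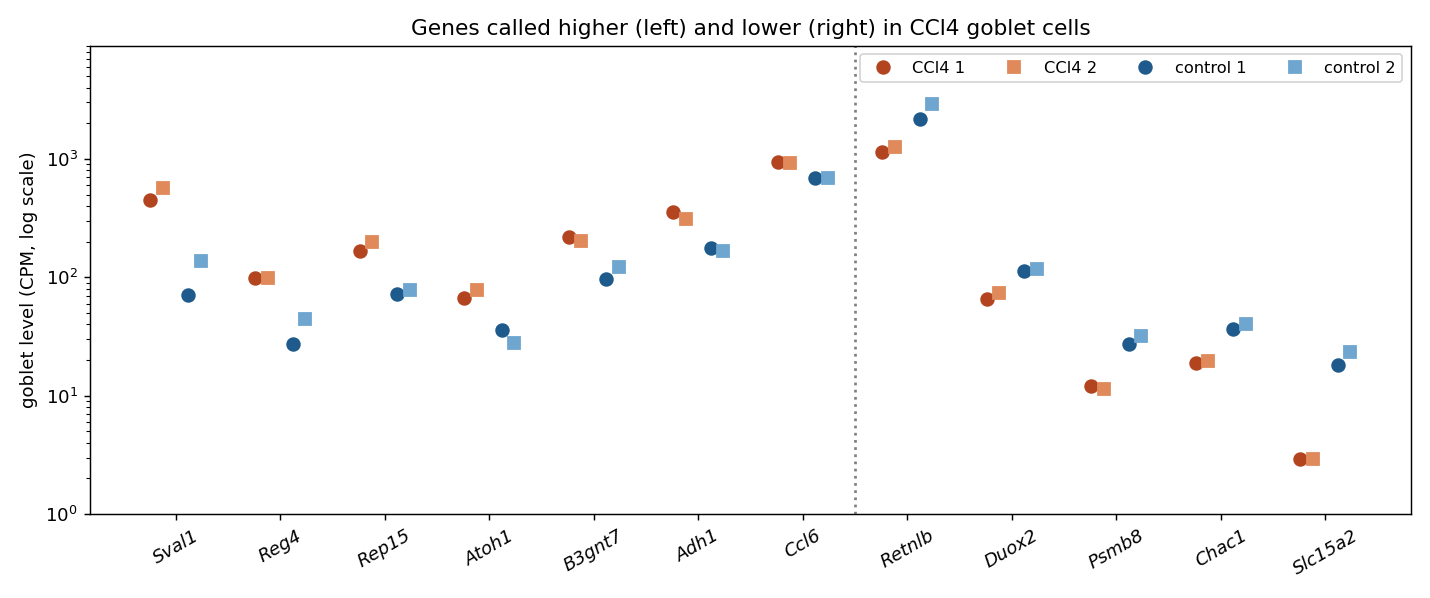
Level of 12 called genes in the goblet cells of each library (CPM, log axis), with CCl4 points (orange and brown) left of control points (blue). The 7 genes left of the dotted line were called higher and the 5 to its right lower in CCl4. For each of the 12 both CCl4 points lie on the same side of both control points, for example Rep15 at 166 and 198 CPM in CCl4 and 72.3 and 78.5 CPM in control.

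Other named genes that rose encode enzymes and peptides. Adh1, an alcohol dehydrogenase that also oxidises retinol, was at 353 and 308 CPM in CCl4 and 177 and 167 CPM in control (log2 0.94), and was the only member called among 44 tested genes of xenobiotic and redox metabolism (median log2 0.23). Ttr, a carrier of thyroid hormone, was at 92.4 and 84.0 CPM in CCl4 and 50.4 and 42.1 CPM in control (log2 0.93). The edgeR adjusted p was 0.001768 for Adh1 and 0.01088 for Ttr. The vasoactive peptide Edn1 (log2 0.84) and the protease Cela1 (0.84) rose with edgeR adjusted p of 0.03841 and 0.0157. The Edn1 call was lost without CCl4 library 1 (log2 0.67, edgeR adjusted p = 0.1339). The 7 colonocyte markers summed to 1298 and 1471 CPM in CCl4 goblet cells and to 1792 and 1004 CPM in control goblet cells, where the groups overlapped.

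Haemoglobin transcripts gave the largest called rises. Hba-a2 was at 83.3 and 49.9 CPM in CCl4 goblet cells and 1.46 and 1.93 CPM in control goblet cells (log2 5.28), Hbb-bs gave a log2 change of 4.78 and Hba-a1 of 4.65. Each of these 3 calls was lost with stricter cells (edgeR adjusted p = 0.1352, 0.1253 and 0.1279) and with the 1% goblet threshold (0.06051, 0.06051 and 0.06048), and DESeq2 gave none of the 3 an adjusted p. The 5 listed red cell markers summed to 323 and 181 CPM in CCl4 goblet cells, against 6.74 and 10.2 CPM in control goblet cells. The sums over other epithelial cells were 1602 and 509 CPM in CCl4 and 98.1 and 77.1 CPM in control, so these transcripts were higher in the CCl4 libraries in both sets of cells. The mitochondrial genes mt-Co1, mt-Cytb, mt-Nd2 and mt-Nd5 were also called higher, for example mt-Co1 by 0.36 on the log2 scale, beside the higher mitochondrial share given above. None of 33 tested nuclear genes of oxidative phosphorylation was called (median log2 -0.04).

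Called falls outside the secreted products included a carrier, an immunoproteasome subunit and an oxidase. Slc15a2, which encodes a carrier of small peptides, was at 2.93 and 2.89 CPM in CCl4 goblet cells and 18.2 and 23.4 CPM in control goblet cells (log2 -2.83, SE 0.27, edgeR adjusted p = 0.001376). It was the only gene called among 31 tested ion and water transport genes (median log2 0.04). Psmb8, an immunoproteasome subunit, was at 11.96 and 11.5 CPM in CCl4 and 27.5 and 31.7 CPM in control (log2 -1.34, edgeR adjusted p = 0.01199), and was the only member called among 21 tested genes of MHC class I presentation (median log2 -0.10). In the interferon list none of 30 tested genes was called, with a median of -0.24. Duox2, an oxidase that makes hydrogen peroxide, was at 65.6 and 73.4 CPM in CCl4 and 112 and 118 CPM in control (log2 -0.73, edgeR adjusted p = 0.0157). It was the only member called among 19 tested genes of microbial sensing (median log2 0.03). Tnip3, an inhibitor of NF-kB signalling, fell by 0.64 on the log2 scale, Lpin2, a phosphatidate phosphatase, by 0.88, and the surface protein Plet1 by 0.49 (edgeR adjusted p = 0.01947, 0.03841 and 0.02144). Without CCl4 library 1 the calls of Duox2 (log2 -0.65), Tnip3 (-0.67) and Lpin2 (-0.84) were lost, with edgeR adjusted p of 0.1339, 0.09557 and 0.1278. Without CCl4 library 2 that of Tnip3 was lost (-0.61, edgeR adjusted p = 0.1144).

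Genes of protein folding and stress had mostly negative changes, nearly all of which missed the threshold. Chac1, a glutathione-degrading enzyme and target of the stress factor Atf4, was at 18.98 and 19.6 CPM in CCl4 and 36.9 and 39.9 CPM in control (log2 -0.996, SE 0.15, edgeR adjusted p = 0.02144). It was the only member called among 19 tested genes of the integrated stress response, of which 16 had a negative log2 change (median -0.23). The median was -0.24 in both Muc2-high and Muc2-middle cells. The 20 listed genes summed to 3558 and 3512 CPM in CCl4 and 4278 and 3901 CPM in control Muc2-high cells. In Muc2-middle cells they had 3004 and 2779 against 2789 and 2870 CPM, where the groups overlapped. In Muc2-low cells, with few control barcodes, they had 2190 and 2327 against 1547 and 1982 CPM. Atf4 itself was at 645 and 553 CPM in CCl4 and 661 and 694 CPM in control (log2 -0.18, edgeR adjusted p = 0.4734). Without CCl4 library 1 the call of Chac1 was lost (log2 -0.97, edgeR adjusted p = 0.1084). The autophagy receptor Sqstm1 fell to 1275 and 1120 CPM in CCl4 goblet cells, against 1632 and 1687 CPM in control goblet cells (log2 -0.47, edgeR adjusted p = 0.03841), and its call was lost in 5 of 14 alternatives. These were the fit without CCl4 library 2 (log2 -0.37, edgeR adjusted p = 0.06547), stricter cells, doublets removed, thinned barcodes, and the fit without the barcodes richest in Zg16 and Clca1. None of 37 tested folding genes of the endoplasmic reticulum was called, while 30 of them had a negative change (median -0.13). The summed level of the 37 genes was 11265 and 11048 CPM in CCl4 and 12266 and 12732 CPM in control, so the groups did not overlap. None of 34 tested genes of vesicle transport and exocytosis was called (median -0.09). Over all tested genes 6256 of 12665 had a negative change. In other epithelial cells 25 of the 37 folding genes had a negative change (median -0.07). The median difference of the folding genes, goblet minus other epithelial cells, was 0.03.

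None of the tested members was called in the lists of cytokine receptors (25 genes, median log2 -0.04), MHC class II (7, 0.22), cell cycle (35, 0.06), surface colonocyte genes (23, 0.29), immediate early and heat shock genes (26, 0.17), clock genes (17, 0.13) and tight junction genes (22, -0.14). In the list of antimicrobial genes Retnlb was the only one called among 10 tested. At 2 libraries a group, missing the threshold does not show that a gene stayed the same.

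The bases before the start of 4 called genes are shown because 3 of them rose together and the other, Slc15a2, had the largest fall among them. They are the 250 bases before the RefSeq start, on the gene's strand from 5′ to 3′, in GRCm38.p6. Of the 23 called genes named by the rule, 19 had an entry. Capitals mark CAGCTG, an E-box of the kind that Atoh1 binds, and TGTTTAC, a forkhead motif (GTAAACA on the opposite strand). Both were searched on both strands.
Sval1, chr6:41951378-41951627, plus strand: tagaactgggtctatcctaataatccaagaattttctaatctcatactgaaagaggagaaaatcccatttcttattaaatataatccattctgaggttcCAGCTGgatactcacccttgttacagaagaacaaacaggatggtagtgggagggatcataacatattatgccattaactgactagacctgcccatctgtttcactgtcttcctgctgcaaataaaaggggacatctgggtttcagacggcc
Reg4, chr3:98221906-98222155, plus strand: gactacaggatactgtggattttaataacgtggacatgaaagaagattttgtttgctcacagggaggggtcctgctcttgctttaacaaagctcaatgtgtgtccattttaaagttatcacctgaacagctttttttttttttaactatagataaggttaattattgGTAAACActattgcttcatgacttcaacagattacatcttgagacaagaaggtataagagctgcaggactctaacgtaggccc
Atoh1, chr6:64728875-64729124, plus strand: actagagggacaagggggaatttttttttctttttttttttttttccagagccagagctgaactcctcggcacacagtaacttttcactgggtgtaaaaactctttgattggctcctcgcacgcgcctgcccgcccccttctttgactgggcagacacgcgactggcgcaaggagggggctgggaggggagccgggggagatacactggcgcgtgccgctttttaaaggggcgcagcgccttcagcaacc
Slc15a2, chr16:36784963-36785212, minus strand: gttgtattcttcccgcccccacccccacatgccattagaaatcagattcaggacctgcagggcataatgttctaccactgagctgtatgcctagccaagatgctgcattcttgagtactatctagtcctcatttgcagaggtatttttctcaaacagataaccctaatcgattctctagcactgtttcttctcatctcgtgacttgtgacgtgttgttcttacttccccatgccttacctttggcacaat
Sval1 held 1 CAGCTG and Reg4 held 1 forkhead motif on the other strand, and neither motif was in the windows of Atoh1 and Slc15a2. CAGCTG was in 13.0% and the forkhead motif in 3.17% of all 32851 RefSeq windows of this length, so a match only describes the sequence, and no match says only that these letters are not in this window. Retnlb, Rep15 and Zg16 are named only. The genes themselves lie on chromosome 6 from 41951630 to 41956098 (Sval1), chromosome 3 from 98222156 to 98236748 (Reg4), chromosome 6 from 64729125 to 64731245 (Atoh1) and chromosome 16 from 36750177 to 36784962 (Slc15a2) in GENCODE M21.

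The Muc2 ranges showed what else moved with mucin. Ratios of Muc2-high over Muc2-middle cells were taken in each library as a description, since Muc2 drew the split. Of 3169 genes with at least 50 CPM in either range, 745 were higher and 492 lower in Muc2-high cells in all 4 libraries. Genes higher in Muc2-high cells included the non-coding RNA Meg3, with 321 and 308 CPM in Muc2-high and 156 and 148 CPM in Muc2-middle cells of the CCl4 libraries, and 263 and 207 against 95.01 and 40.02 CPM in the control libraries. B3gnt6, the enzyme that starts core 3 mucin chains, B3galt5, a galactosyltransferase, and Mia3, which helps load bulky cargo into transport vesicles, were also among the 12 leading genes. Genes lower in Muc2-high cells included the cell cycle genes Hmgb2, Mki67 and Stmn1, and Tff3. The 47 glycosylation genes summed to between 9694 and 10110 CPM in Muc2-high cells, to between 7744 and 7980 CPM in Muc2-middle cells and to between 5505 and 6596 CPM in Muc2-low cells over the 4 libraries. The 35 cell cycle genes summed to between 1246 and 1453 CPM in Muc2-high cells and to between 1764 and 2296 CPM in Muc2-middle cells. In Muc2-low cells they had 2612 and 2698 CPM in CCl4 and 2070 and 4121 CPM in control.

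Several genes called in all goblet cells were also called within single Muc2 ranges. The comparisons are of parts of the same cells and are no independent evidence. In Muc2-high cells edgeR called 8 of 10734 genes (0.0745%), 6 higher (0.0559%) and 2 lower (0.0186%). The count was 130, 39, 79 and 271 without CCl4 library 1, CCl4 library 2, control library 1 and control library 2. They included Rep15 (log2 1.24, edgeR adjusted p = 0.003951), Atoh1 (1.28, 0.02881), B3gnt7 (0.88, 0.02881) and Retnlb (-0.78, 0.0495). Sval1 was at 394 and 422 CPM in Muc2-high cells of CCl4 and 82.8 and 197 CPM in those of control (log2 1.54, edgeR adjusted p = 0.05586). In Muc2-middle cells 97 of 10733 genes (0.904%) were called, 65 higher (0.606%) and 32 lower (0.298%), and 158 without control library 1. This range was added after the data were seen. There Sval1 was at 479 and 650 CPM in CCl4 and 62.5 and 44.6 CPM in control (log2 3.40, SE 0.18, edgeR adjusted p = 7.292e-10). Retnlb was at 773 and 1127 CPM in CCl4 and 2117 and 2100 CPM in control (log2 -1.15, edgeR adjusted p = 4.382e-05). B3gnt7 (1.57), Ttr (1.73), Edn1 (1.40), Ccl6 (0.87) and Nov (0.79) were called higher, and the cell cycle genes Cdk1 (-1.21), Birc5 (-1.04) and Top2a (-1.02) lower. Of 35 listed cell cycle genes tested there, 3 were called lower and none higher, and 26 had a negative change (median log2 -0.42). Their sum was 1764 and 1911 CPM in CCl4 and 2296 and 1900 CPM in control Muc2-middle cells, where the groups overlapped. Nov, Cdk1, Birc5 and Top2a were chosen after their values were seen. The difference between ranges in these changes was not tested.

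The control Muc2-middle cells were only 96 and 95 barcodes, and transcripts of muscle were higher there. Tpm2, a muscle tropomyosin, was at 5.71 and 2.85 CPM in CCl4 and 53.9 and 69.3 CPM in control Muc2-middle cells, and Acta2, the smooth muscle actin, at 8.74 and 5.47 CPM against 130 and 46.2 CPM (both genes chosen after their values were seen). Barcodes among the 6% with the highest doublet scores were 4.34% and 4.79% of Muc2-middle cells in CCl4, against 9.38% and 11.6% in control. With these removed, 82 genes were called, 61 higher and 21 lower. Also, 7 of 18 tested surface colonocyte genes were called higher in Muc2-middle cells. With the 1% goblet threshold 31 genes were called in that range, and with thinned barcodes 2 higher and 1 lower of 3551 tested. In Muc2-low cells edgeR called 0 of 7430 genes (0.0%), with 270 higher and 197 lower at an unadjusted p under 0.05, and DESeq2 called 1. Leaving out control library 1 or 2 gave 512 or 613 calls, and leaving out CCl4 library 1 or 2 gave 3 or 1. The control libraries had only 21 and 14 barcodes there. The 27 surface colonocyte genes summed to 5697 and 5994 CPM in CCl4 and 18712 and 2580 CPM in control Muc2-low cells, against 16112 and 16258 CPM (CCl4) and 21509 and 19635 CPM (control) in other epithelial cells. So control library 1 stood near the other epithelial level, and the part of this in the Muc2-low values was not tested.

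**Figure D4:**
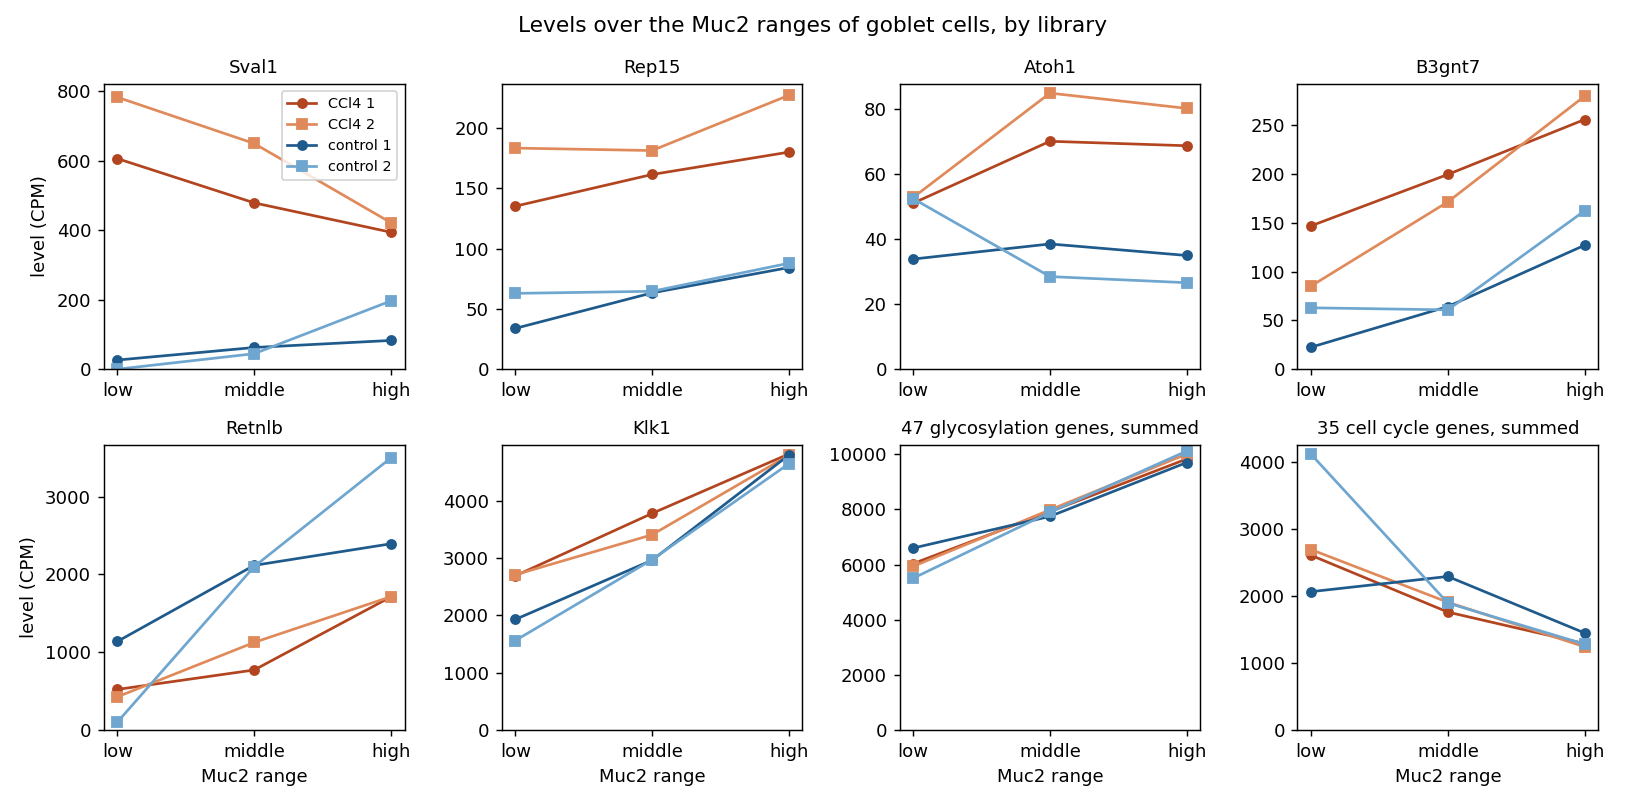
Levels in Muc2-low, Muc2-middle and Muc2-high goblet cells, 1 line per library (CPM, linear axes from 0), with CCl4 libraries in orange and brown and control libraries in blue. Sval1 in Muc2-middle cells was at 479 and 650 CPM in CCl4 and 62.5 and 44.6 CPM in control. The control points of the Muc2-low range rest on 21 and 14 barcodes.

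Whether the CCl4 change differed between goblet and other epithelial cells of the same libraries was tested with an interaction term in edgeR. Within other epithelial cells alone, 37 of 17734 genes (0.209%) were called, 14 higher (0.0789%) and 23 lower (0.13%), and 183, 255 and 142 were called without CCl4 library 1, CCl4 library 2 and control library 2. The difference was called for 482 of 17106 genes (2.82%), 398 of them (2.33%) with a more positive change in goblet cells and 84 (0.491%) with a more negative one. The count was 199, 128, 1112 and 1061 without CCl4 library 1, CCl4 library 2, control library 1 and control library 2. This split depended on the scaling: with size factors of the RLE method 336 were called, 213 higher and 123 lower. The median difference over all genes was 0.11 on the log2 scale, and 0.02 with RLE, so directions are best read for large differences. A difference can also come from either set. In other epithelial cells 23 of 27 surface colonocyte genes and 32 of 33 nuclear oxidative phosphorylation genes had a negative change. Of these lists, 10 and 19 genes had a called difference more positive in goblet cells, and 1 and 0 a more negative one. The median mitochondrial share of other epithelial barcodes was 14.9% and 14.4% in CCl4 and 13.7% and 14.0% in control. The make-up of that set was not tested.

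The Retnlb change differed between the cell sets. Other epithelial cells had 12.7 and 17.0 CPM in CCl4 and 12.6 and 9.57 CPM in control, and the difference of the changes was -1.38 (SE 0.14, edgeR adjusted p = 2.839e-07). After thinning, a Retnlb count was held by 1.38% and 1.19% (CCl4) and 0.974% and 1.41% (control) of barcodes that were not epithelial. How much of the other epithelial level is free RNA was not tested. For Sval1 the difference was 0.18 and missed the threshold (edgeR adjusted p = 0.8783), where other epithelial cells had 4.13 and 5.59 CPM in CCl4 and 0.603 and 1.47 CPM in control. Differences for Atoh1 (0.16), Rep15 (0.58) and Slc15a2 (-1.29) also missed the threshold (edgeR adjusted p = 0.9363, 0.4352 and 0.1132). After thinning, 0.597% and 0.334% (CCl4) and 0.05% and 0.0468% (control) of barcodes that were not epithelial held a Sval1 count. For Rep15 these shares were 0.38% and 0.334% (CCl4) and 0.2997% and 0.1405% (control). The part of free RNA in the other epithelial levels of Sval1 and Rep15 was not tested. Psmb8 fell in both, to 38.3 and 37.1 CPM in CCl4 other epithelial cells against 117 and 108 CPM in control ones, with a difference of 0.33 (edgeR adjusted p = 0.4614). B3gnt7 rose more in other epithelial cells, where it was at 16.2 and 13.5 CPM in CCl4 and 0.862 and 1.47 CPM in control (difference -2.62, SE 0.23, edgeR adjusted p = 9.937e-09). Nxpe2, a member of the neurexophilin family, was at 207 and 202 CPM in CCl4 and 246 and 255 CPM in control goblet cells. In other epithelial cells it was at 8.30 and 9.82 CPM in CCl4 and 1.38 and 1.88 CPM in control (difference -2.66, edgeR adjusted p = 1.586e-09). Beside these 2 genes, Muc2 was at 88.8 and 76.8 CPM in CCl4 other epithelial cells and 24.2 and 28.95 CPM in control ones, and barcodes just under the goblet threshold were more frequent in CCl4, as given above. Their part in the Retnlb, B3gnt7 and Nxpe2 values was not tested.

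Reg4 and Sult1a1 had a more positive change in goblet than in other epithelial cells. For Reg4, other epithelial cells had 32.9 and 2.52 CPM in CCl4 and 78.6 and 80.2 CPM in control, with CCl4 library 2 lowest, and the difference was 4.15 (SE 0.52, edgeR adjusted p = 8.352e-06). It was 2.77 without CCl4 library 2 and 6.54 without CCl4 library 1. The sulfotransferase Sult1a1 was at 72.5 and 60.0 CPM in CCl4 goblet cells and 28.1 and 6.88 CPM in control goblet cells, which missed the threshold (log2 1.94, edgeR adjusted p = 0.05827). With 1 of the 4 libraries left out, the Sult1a1 log2 change ran from 1.24 (without control library 2) to 3.27 (without control library 1). Each of these fits left 1 library in a group, which has no spread of its own. Sult1a1 was, in other epithelial cells, at 449 and 422 CPM in CCl4 and 395 and 376 CPM in control. The difference was 1.89 (edgeR adjusted p = 1.071e-05). Sult1a1 had several-fold higher levels in other epithelial cells than in goblet cells in every library.

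**Figure D5:**
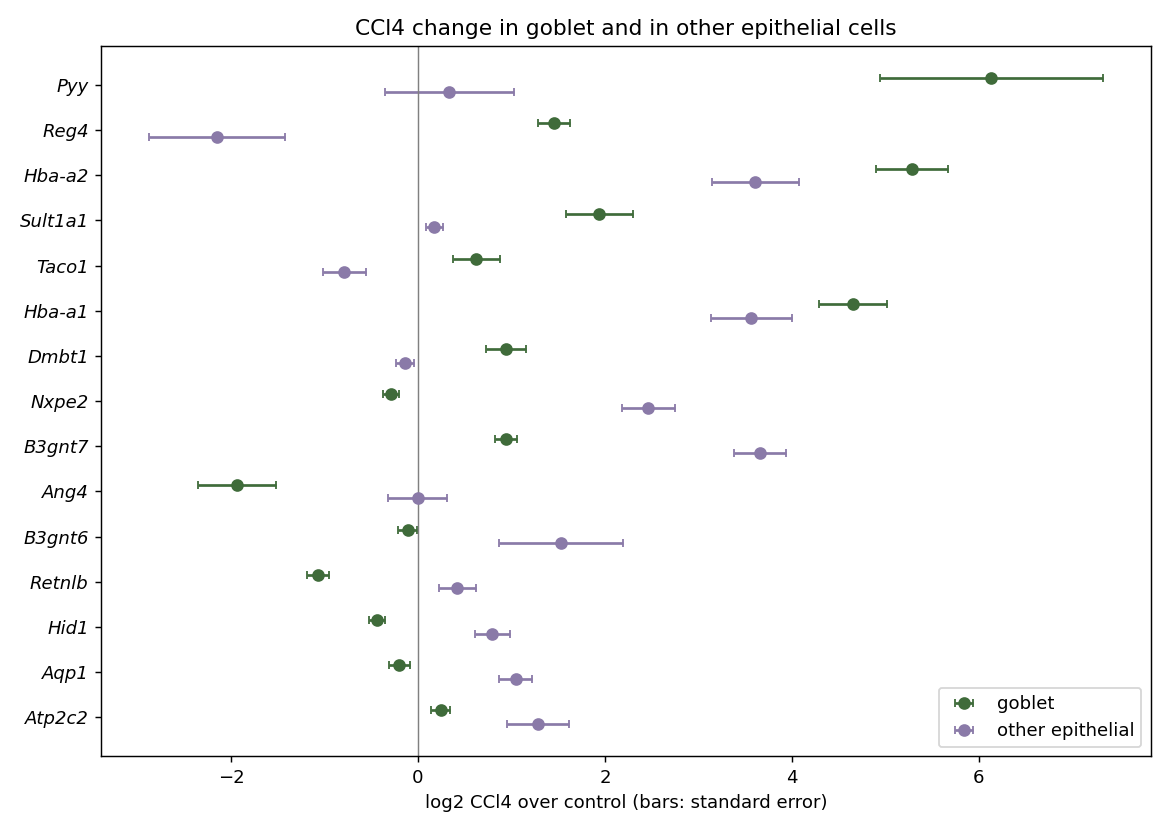
CCl4 over control change (log2, with its standard error) in goblet and in other epithelial cells for 15 genes with the largest called differences, 7 more positive and 8 more negative in goblet cells. Retnlb lies at -1.07 in goblet cells and 0.42 in other epithelial cells, and B3gnt7 at 0.94 and 3.66.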

How the data were processed

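Colon tissue was dissociated with enzymes, cells were caught in droplets and polyadenylated RNA was sequenced, per the labels' protocols. The deposited matrices hold raw counts, and their headers name PISA v0.12b as the program. GRCm38 is named in the submitters' processing notes. No source used here names an aligner. A floor of 1000 counts per barcode was visible in each file. Members and gene lists were chosen with earlier results of these data known.

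Counts were summed over the barcodes of a cell set in each library and tested with edgeR 4.0.16 in R 4.3.3 (quasi-likelihood test, TMM scaling, filterByExpr, Benjamini-Hochberg adjustment over all tested genes, threshold 0.05). The difference between cell sets was an interaction term over 8 sums with library as a block. Goblet barcodes held 3405319 to 12276903 counts per library, and intervals cover counting error only. Named genes were those called whose mean reached 50 CPM in one group (up to 15 rises and 15 falls, without ribosomal, mitochondrial, Gm, Rik and receptor segment genes), called members of the 21 lists, up to 4 abundant members of each list, and the 8 largest differences each way, of which some genes are not reported here. Thinning drew 1000 counts from each barcode. The scripts were tested on simulated data. Alternatives were RLE size factors, no low-count filter, DESeq2 1.42.0, leaving out each library, at least 500 genes with at most 10% mitochondrial counts ("stricter cells"), removal of the 6% of barcodes with the highest Scrublet scores (scanpy 1.11.5), a 1% goblet with a 0.5% epithelial threshold, and a block on library number. Thinned barcodes, leaving out the barcodes richest in Zg16 and Clca1, the crossed block and the Muc2-middle fit were chosen after seeing the data. Positions came from GENCODE M21, which held 98.3% of the 29897 gene symbols, and sequences from RefSeq (GRCm38.p6).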

Additional observations from a re-analysis of the deposited data

Results flagged for a closer look

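The CCl4 change differed between goblet and other epithelial cells, by the interaction test in edgeR over the same 4 libraries, for 15 genes singled out among the largest called differences of their direction among genes with at least 50 CPM. Differences are the log2 change in goblet cells minus that in other epithelial cells. Sult1a1 (1.89), Taco1 (1.51), Retnlb (-1.38), B3gnt7 (-2.62), Nxpe2 (-2.66), Hid1 (-1.15) and Aqp1 (-1.14) passed the threshold under all 10 alternatives checked. Thinned barcodes and the fit without the barcodes richest in Zg16 and Clca1 were not checked for single genes of this test. Taco1, an activator of mitochondrial translation, was at 66.7 and 40.8 CPM in CCl4 and 26.4 and 43.5 CPM in control goblet cells. Other epithelial Taco1 was at 204 and 127 CPM in CCl4 and 234 and 338 CPM in control. The water channel Aqp1 was at 95.8 and 79.0 CPM in CCl4 and 99.8 and 101.1 CPM in control goblet cells. In other epithelial cells it was at 33.0 and 22.9 CPM in CCl4 and 14.0 and 13.1 CPM in control. Hid1, a protein of secretory granule formation, was at 205 and 199 CPM in CCl4 goblet cells and 272 and 275 CPM in control ones. Other epithelial Hid1 was at 34.5 and 27.3 CPM in CCl4 and 21.3 and 14.4 CPM in control. The 4 goblet genes of the rule summed to 333 and 314 CPM in CCl4 other epithelial cells and 173 and 147 CPM in control ones. Barcodes just under the goblet threshold were also more frequent in CCl4, as given above. Their part in the negative differences of this section was not tested.

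Pyy (5.49), a peptide hormone of enteroendocrine cells, Reg4 (4.15) and the scavenger glycoprotein Dmbt1 (1.21) passed under each of these 10 alternatives except DESeq2. Their sizes moved with single libraries: Pyy was 2.67 with control library 1 left out and 8.0005 with control library 2 left out, Reg4 2.77 without CCl4 library 2 and 6.54 without CCl4 library 1, and Dmbt1 1.72 and 0.82 with control library 1 or 2 left out. Pyy was at 17.8 and 106 CPM in CCl4 goblet cells and 0.293 and 1.38 CPM in control goblet cells. Other epithelial Pyy was at 85.4 and 127 CPM in CCl4 and 151 and 17.3 CPM in control. Enteroendocrine markers, of which Pyy is one, summed to 94.1 and 293 CPM in CCl4 goblet cells and 156 and 88.1 CPM in control ones, and their part in the Pyy value was not tested.

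The others depended on single libraries or on cell filters. Hba-a2 (1.89) was lost without control library 1 (1.499), and Hba-a1 (1.29) without control library 1 (1.07) and without CCl4 library 2 (0.90). Ang4 (-1.72) was lost without control library 2 (-0.45). B3gnt6 (-1.55) was lost without control library 2 (-0.85) and without CCl4 library 2 (-1.47). Atp2c2 (-0.94), a calcium and manganese pump of the secretory pathway, was lost without CCl4 library 1 (-1.02), CCl4 library 2 (-0.93) and control library 2 (-0.94).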

How the results depend on the processing

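With 2 libraries a group, the counts of called genes moved with the settings more than the named changes did. Of the 23 called genes named by the rule, 4 (B3gnt7, Rep15, Retnlb and Sval1) passed under all 14 alternatives. Besides the losses given above, the calls of Adh1, Cela1, Chac1, Duox2, Edn1, Lpin2, Plet1, Psmb8, Tnip3 and Ttr were lost with thinned barcodes, those of Cela1, Duox2 and Lpin2 with stricter cells, that of Edn1 with doublets removed, and those of Edn1, Lpin2, Plet1 and Tnip3 without the barcodes richest in Zg16 and Clca1. DESeq2 gave Chac1, Lpin2, Psmb8, Slc15a2 and Ttr no adjusted p. Slc15a2 had an adjusted p under only 12 of the 14 alternatives, and was called in those 12. The goblet count of 48 was 294 without a low-count filter, 100 with DESeq2, 31 with doublets removed, 75 with the 1% threshold, 21 with thinned barcodes, 25 without the barcodes richest in Zg16 and Clca1, and 58 to 697 when 1 library was left out. Muc2-high cells gave 144 without a filter, 41 with DESeq2, 25 with stricter cells, 18 with the 1% threshold and 39 to 271 with 1 library left out. Muc2-low cells gave 52, 1 and 2 under the first 3 of these, and 1 to 613 with 1 library left out. Muc2-middle cells gave 198 without a filter, 40 with stricter cells, 31 with the 1% threshold and 71 to 158 with 1 library left out. Other epithelial cells gave 260 without a filter, 284 with DESeq2, 14 with stricter cells, 474 with the 1% threshold and 41 to 255 with 1 library left out. The difference gave 756 without a filter, 171 with DESeq2, 204 with stricter cells, 312 with doublets removed and 128 to 1112 with 1 library left out. With library number as a replicate block the counts were 226 (goblet), 81 (Muc2-high), 2 (Muc2-low), 165 (Muc2-middle) and 481 (other epithelial). Same-numbered libraries did not deviate together (r = -0.0619 in goblet and -0.2264 in other epithelial cells), so the numbers were not taken as pairs. The crossed pairing gave 126 goblet and 64 other epithelial calls. With thinned barcodes the calls higher and lower were 7 and 2 (Muc2-high), 2 and 1 (Muc2-middle) and 0 and 0 (Muc2-low). They were 0 and 0 in other epithelial cells, and 51 and 17 for the difference. Thinning also left fewer genes to test, for example 3551 in Muc2-middle cells, against 10733 in the main fit. Guca2a changed sign, at 0.4039 without control library 1 and -0.2687 without control library 2. The cause of these movements was not tested. The excess of goblet barcodes in CCl4 kept its direction under every alternative run, at 3.08 to 6.17 percentage points of kept and 4.05 to 7.17 of epithelial barcodes. In Muc2-low cells a control library held 89452 counts.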
